A study of Homo sapiens with 8 samples.

Results

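The retinoic acid metabolism and binding genes are 9 genes named for their part in making, storing, clearing or carrying retinoids: DHRS3, DHRS9, RDH10, RDH11, RETSAT, CYP26A1, CYP26B1, CRABP1 and CRABP2. They were chosen by name from 37526 gene names that are listed for every library. RNA-seq was made in NB4 cells, a human cell line of acute promyelocytic leukemia (APL) that carries the PML/RARα fusion, in 4 groups of 2 replicates each. All cells were stably transduced with pLVX-shRNA2-puro, a puromycin-selected lentiviral vector. The scramble group carried the control, which the labels call an empty vector and the methods a scrambled shRNA. The shKDM3B group carried an shRNA against KDM3B, a histone H3K9 demethylase. Both were also sequenced after all-trans retinoic acid (ATRA) at 1 µM by the labels, where the text of the methods has the unit mM (scramble+ATRA and shKDM3B+ATRA). The labels name 24 and 48 h of ATRA without saying which time was sequenced, and which of the KDM3B hairpins was used is not given in the sources used here. No source says whether replicates were separate cultures, so P-values measure only the spread between these libraries, which may be technical.

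Retinol is oxidized in a reversible step to retinaldehyde, which is then oxidized irreversibly to retinoic acid. Retinoic acid acts through nuclear retinoic acid receptors, which pair with retinoid X receptors on direct repeats of short DNA half-sites, and its level is held down by enzymes that the acid itself can induce. In APL the receptor RARα is fused to PML, and pharmacological ATRA releases the block to granulocytic maturation. The members fall into 3 roles. DHRS9 and RDH10 oxidize retinol, whereas DHRS3 and RDH11 reduce retinaldehyde back to retinol, and RETSAT saturates a double bond of retinol. CYP26A1 and CYP26B1 are cytochrome P450 enzymes that hydroxylate retinoic acid for clearance. CRABP1 and CRABP2 bind retinoic acid in the cytoplasm, and CRABP2 delivers it to the nuclear receptors.

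The library totals on genes ran from 9708739 to 33017787 read pairs. Levels are given as CPM, read pairs relative to library size after TMM scaling. KDM3B itself was at 186 and 189 CPM in scramble, 75.1 and 89.1 CPM in shKDM3B, 194 and 120 CPM in scramble+ATRA, and 52.8 and 57.1 CPM in shKDM3B+ATRA. Its groups did not overlap without ATRA (log2 difference -1.21, edgeR adjusted p = 0.068) or with ATRA (-1.53, unadjusted P = 0.00787, edgeR adjusted p = 0.502). With ATRA the unadjusted P rose to 0.0632 without shKDM3B+ATRA replicate 1 and to 0.0534 without replicate 2, at log2 differences of -1.46 and -1.59. The share of reads outside genes was 8.49 to 9.62% in 5 libraries but about 50% in scramble+ATRA replicate 2 and 51.0 and 51.4% in the shKDM3B+ATRA libraries. As both shKDM3B+ATRA libraries stand on that side, this split and the response of shKDM3B cells to ATRA cannot be told apart. The untreated and treated files also list different gene names, so a difference in annotation and the effect of ATRA cannot be told apart either. Of 7 promyelocyte markers, MPO reached 611 to 9845 CPM and CD33 62.5 to 109 CPM, whereas ELANE was at 0 to 0.354 CPM, AZU1 at 0.0498 to 1.48 CPM and PRTN3 at 0 to 1.17 CPM. CTSG was at 104 to 146 CPM without ATRA and 1.70 to 4.05 CPM with it, and CEBPE at 50.8 to 74.8 CPM and 261 to 421 CPM. The summed level of the promyelocyte markers was 4469 and 5647 CPM in scramble, 8474 and 10126 CPM in shKDM3B, 1254 and 1034 CPM in scramble+ATRA and 3506 and 2594 CPM in shKDM3B+ATRA, but MPO made up most of it. Without MPO the other 6 markers summed to 217 and 267 CPM in scramble, 273 and 281 CPM in shKDM3B, 534 and 423 CPM in scramble+ATRA and 357 and 386 CPM in shKDM3B+ATRA. With ATRA, CEBPE made up most of that sum. The summed level of 5 granulocytic maturation markers was 492 and 475 CPM in scramble and 341 and 374 CPM in shKDM3B. With ATRA it was 3446 to 3668 CPM in scramble+ATRA and 1800 to 2219 CPM in shKDM3B+ATRA. MS4A1, a B-cell marker, was at 0 in every library. The 3 erythroid markers were at 0. EPCAM, an epithelial marker, was at 12.9 to 19.0 CPM in every library, but KRT19, the other one listed, was at 0. The fibroblast markers COL1A1 and COL1A2 were at no more than 0.847 and 0.0605 CPM. In bulk RNA a change in the number of cells and a change in RNA per cell cannot be told apart. The part of the promyelocyte and maturation markers in the results below was not tested.

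Direct repeats with 5 bases between the half-sites, the spacing best known for the retinoic acid receptor, were searched on both strands within 5000 bases of each RefSeq start site in hg38. The half-site was AGGTCA, and the spellings AGTTCA, then also GGGTCA, or lastly GGTTCA were allowed at either place. Of the 8 members with an entry in the RefSeq table, DHRS3, DHRS9 and CYP26A1 held such a repeat, compared with 2.53% of 27305 genes. These 3 are also the members with several start sites and thus several windows (4 for DHRS9, 3 for DHRS3 and 2 for CYP26A1, against 1 for each of the other 5), and of all 35116 windows 2.36% held one, so the shares of members and of all genes do not rest on equal numbers of windows. In the window from 250 bases before to 50 bases after the start, 1 of 8 members (CYP26A1) held one, compared with 0.106% of genes. The repeats are shown because 3 of the members that rose with ATRA hold them, with the half-sites in capitals, 6 flanking bases on each side and the distance from the nearest start in bases (negative before it):
CYP26A1, at -90 from a start, chr10:93073797-93073825, minus strand: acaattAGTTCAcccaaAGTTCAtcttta
CYP26A1, at -1558 from a start, chr10:93071911-93071939, plus strand: ctgcagGGGTCAcaggcGGGTCAggcccg
CYP26A1, at -2953 from a start, chr10:93070516-93070544, minus strand: tcttctGGTTCActaagGGGTCAgctcag
DHRS3, at 615 from a start, chr1:12595976-12596004, minus strand: gctccgGGTTCAgccacAGGTCAgcggcg
DHRS9, at 338 from a start, chr2:169069895-169069923, minus strand: gatcccAGGTCAcaccgAGGTCAtttcta

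In GENCODE v44 on hg38, DHRS3 lies at chr1:12567910-12618210 on the minus strand, DHRS9 at chr2:169064789-169096167 on the plus strand, CYP26A1 at chr10:93073475-93077885 on the plus strand and CYP26B1 at chr2:72129238-72147862 on the minus strand. None of these 4 has exons overlapped by a gene on the opposite strand. On the strand of DHRS3 lie MIR6730 and RNU6ATAC18P, with 0 counts in every untreated library and at most 6 and 11 counts in the treated ones. On the strand of CYP26A1 lies ENSG00000285846, which is not among the names listed for every library. The repeat nearest to a CYP26A1 start lies in an annotated UTR of another transcript of the gene, the other CYP26A1 repeats lie outside the gene, the DHRS3 repeat lies in a UTR of DHRS3 and the DHRS9 repeat in an intron. CYP26B1, which also rose with ATRA, held no such letters in its window, and neither did RDH11, RETSAT, CRABP1 or CRABP2. A repeat with 1 base between the same half-sites was found near CRABP2 and in 4.51% of genes. With 2 bases between, it was found near RETSAT, CYP26A1, CRABP1 and CRABP2 and in 34.6% of genes. Letters that match are no evidence of binding, and DNA binding was not analysed here.

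**Figure D1:**
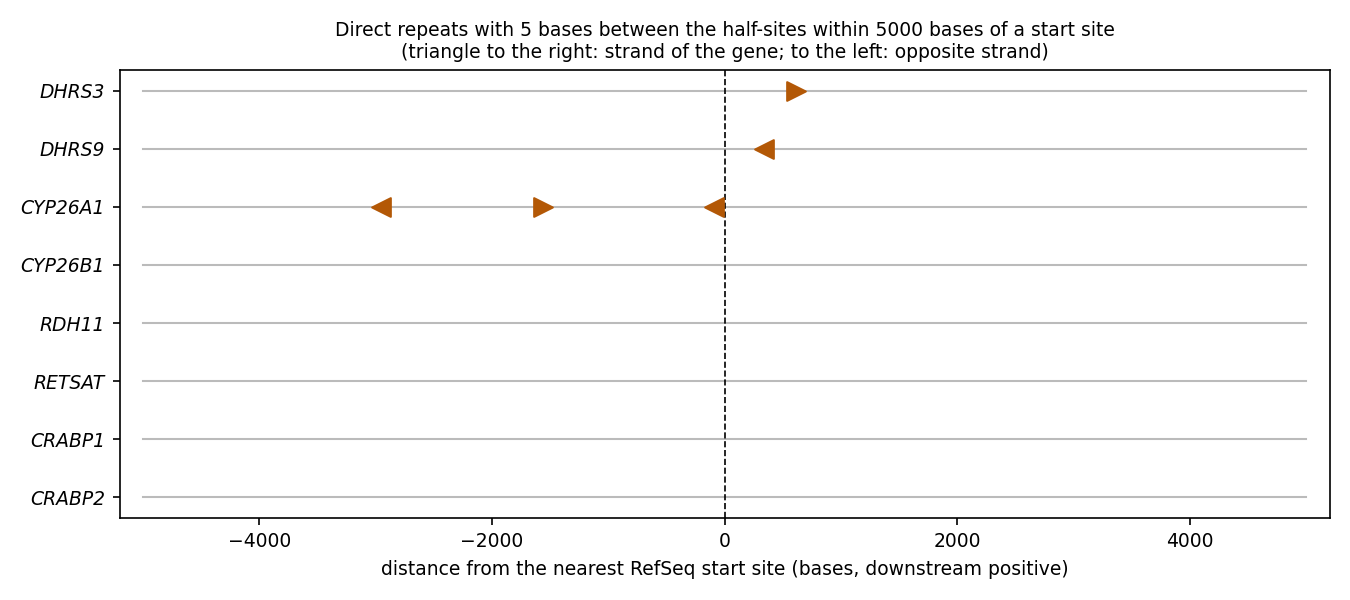
Positions of direct repeats with 5 bases between the half-sites around RefSeq start sites of 8 members, with the distance from the nearest start in bases on the x axis (downstream positive) and 1 line per gene. CYP26A1 has 3 repeats before a start, DHRS3 and DHRS9 have 1 each after a start, and the other 5 members have 0.

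ATRA raised 4 members in scramble cells: the retinaldehyde reductase DHRS3, the retinol dehydrogenase DHRS9 and both hydroxylases, CYP26A1 and CYP26B1. DHRS3 rose 69.3-fold and DHRS9 8.54-fold, and CYP26A1 and CYP26B1 went from a few counts to about 9 CPM. RETSAT, RDH10 and CRABP2 did not pass the test, and CRABP1 was not detected. By the thresholds of the study (unadjusted P under 0.05 and a fold change of at least 1.5), 5 of 8 tested members were called, all higher, whereas 25.9% of 12429 genes were called in either direction and 15% were higher. At an edgeR adjusted p under 0.05, 4 members were called, with a background of 12.9%. CYP26A1 and CYP26B1 passed the filter on low counts through their treated libraries, so these counts are a description. Without scramble replicate 1 or 2 the same 4 were still called by the thresholds of the study, but their edgeR adjusted p lay between 0.105 and 0.175. The median log2 change was 1.91 over the 8 tested members and 0.02 over all genes.

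DHRS3 was at 2.39 and 2.15 CPM in scramble and at 143 and 162 CPM in scramble+ATRA. The lowest treated library was far above both untreated ones, and the log2 change was 6.11 ± 0.27 (SE, edgeR adjusted p = 1.2e-04). By unadjusted P it ranked 6th of 12429 genes. Per kilobase of exon, DHRS3 went from 0.647 ± 0.048 CPM (SD, n = 2) to 43.4 ± 4.0 CPM (SD, n = 2), which moved it from percentile 47.7 to percentile 95 of 19495 detected names.

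DHRS9 was at 23.3 and 34.1 CPM in scramble and at 197 and 276 CPM in scramble+ATRA. The groups did not overlap although the replicates of each differed, and the log2 change was 3.09 ± 0.29 (SE, edgeR adjusted p = 0.00103). DHRS9 was the member with the highest level per kilobase in every group, at 7.65 ± 2.03 CPM in scramble and 63.1 ± 15.0 CPM in scramble+ATRA (SD, n = 2).

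CYP26A1 held 2 and 8 counts in scramble and 163 and 94 counts in scramble+ATRA, or 0.0996 and 0.338 CPM against 9.86 and 8.59 CPM. Both treated libraries were well above both untreated ones. The log2 change was 5.37 ± 0.58 (SE, edgeR adjusted p = 0.0017), and 4.77 and 6.45 without scramble replicates 1 and 2. From the pooled counts the ratio was 40.9, with an exact 95% counting interval of 21.9 to 86.4. No molecular identifiers were used, so this interval and the others below reflect counting error alone.

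CYP26B1 held 0 and 6 counts in scramble and 158 and 91 counts in scramble+ATRA, or 0 and 0.253 CPM against 9.56 and 8.32 CPM. The treated libraries were again separate from the untreated ones, with a log2 change of 6.04 ± 0.84 (SE, edgeR adjusted p = 0.0045). Its pooled ratio was 66.1, with a counting interval of 29.9 to 182. Without scramble replicate 1 the fitted change was 5.13, and without replicate 2 it was 10.16, since the other control library holds 0 counts, so the counting interval is the better guide to its size.

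RDH11, a retinaldehyde reductase that was expressed in every group, was at 32.5 and 38.9 CPM in scramble and at 43.0 and 70.6 CPM in scramble+ATRA. Its log2 change of 0.72 ± 0.29 (SE) passed the thresholds of the study (unadjusted P = 0.0408) but not the adjusted one (edgeR adjusted p = 0.16). The treated replicate at 70.6 CPM is the one with about 50% of reads outside genes, and without it the log2 change was 0.30 (unadjusted P = 0.251). RDH11 was not called either with library size as the only scaling or with upper-quartile scaling (0.62 and 0.66) or without scramble replicate 1 or 2 (0.58 and 0.83), and without scramble+ATRA replicate 1 it was 1.03. Without that library, DHRS3, DHRS9, CYP26A1 and CYP26B1 were still called in scramble cells.

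RDH10, which carries out the first oxidation of retinol, was at 13 and 12.9 CPM in scramble and 8.17 and 11.8 CPM in scramble+ATRA (log2 change -0.33 ± 0.32 SE, edgeR adjusted p = 0.559). RETSAT was at 18.4 and 22.5 CPM against 17.8 and 13.8 CPM (log2 change -0.32 ± 0.27 SE, edgeR adjusted p = 0.496). CRABP2 was at 3.39 and 2.45 CPM against 4.96 and 3.11 CPM, with overlapping groups (log2 change 0.52 ± 0.43 SE, edgeR adjusted p = 0.49). In none of these did the difference between groups stand clear of the spread between replicates. CRABP1 held 0 counts in all 8 libraries, and 3 counts, the limit that a count of 0 allows, would be 0.0909 to 0.309 CPM. In GENCODE v44, ENSG00000279694 on the opposite strand overlaps 45.9% of the exon length of CRABP1. It is not among the names listed for every library, so whether reads there were set apart as ambiguous is not known. The exons outside the overlap held 0 counts as well.

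In shKDM3B cells ATRA raised DHRS3, DHRS9 and CYP26B1 and lowered RETSAT, the retinol saturase. DHRS3 rose 24.7-fold, DHRS9 3.68-fold and CYP26B1 59.2-fold, while RETSAT fell by 0.75 on the log2 scale. CYP26A1 was below the count filter here, and CYP26B1 passed it through its treated libraries. Of 7 tested members 4 were called by the thresholds of the study, 3 higher and 1 lower, and the same 4 at an edgeR adjusted p under 0.05, whereas 42.2% of 12756 genes were called, 24% higher and 18.3% lower, and 40.2% at the adjusted threshold. A share of 4 in 7 is thus not far above the background of this comparison. The median log2 change was 0.40 over the members and 0.04 over all genes.

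DHRS3 was at 3.54 and 4.32 CPM in shKDM3B and at 79.1 and 108 CPM in shKDM3B+ATRA. The treated libraries were separate from the untreated ones, with a log2 change of 4.63 ± 0.21 (SE, edgeR adjusted p = 2.9e-07). DHRS9 was at 58.4 and 67.2 CPM against 215 and 227 CPM, a log2 change of 1.88 ± 0.13 (SE, edgeR adjusted p = 2.9e-06). For DHRS9 the replicates of each shKDM3B group lay closer together than those of the scramble groups.

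CYP26B1 held 2 and 5 counts in shKDM3B and 44 and 113 counts in shKDM3B+ATRA, or 0.101 and 0.159 CPM against 4.67 and 11.3 CPM. Its log2 change was 5.89 ± 0.59 (SE, edgeR adjusted p = 3.6e-05), and its pooled ratio was 59.2 with a counting interval of 28.1 to 150. The treated replicates differed from each other but both were above the untreated ones, and without shKDM3B+ATRA replicate 2 the log2 change was 5.11.

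CYP26A1 held 7 and 9 counts in shKDM3B and 4 and 21 counts in shKDM3B+ATRA, or 0.354 and 0.286 CPM against 0.424 and 2.10 CPM. On the CPM scale the groups did not overlap, but only replicate 2 of shKDM3B+ATRA was clearly above the untreated libraries. The pooled ratio was 4.12, with a counting interval of 2.12 to 8.27. With no filter on low counts its log2 change was 2.03 ± 0.63 (SE, edgeR adjusted p = 0.00476), and without shKDM3B replicate 2 it was 1.85 (edgeR adjusted p = 0.0758).

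RETSAT was at 30.3 and 26.6 CPM in shKDM3B and at 15.7 and 16.7 CPM in shKDM3B+ATRA (log2 change -0.75 ± 0.18 SE, edgeR adjusted p = 0.0064). Without shKDM3B+ATRA replicate 1 its edgeR adjusted p was 0.0593, at a log2 change of -0.71. Exons of ELMOD3 on the opposite strand overlap 3.41% of its exon length, and ELMOD3 had 169 to 452 counts per library. RDH11 was at 43.1 and 46.4 CPM against 55.8 and 56.8 CPM, a log2 change of 0.40 ± 0.14 (SE) that passed the adjusted test (edgeR adjusted p = 0.0352) but not the fold threshold. RDH10 (12.2 and 12.9 against 9.97 and 8.89 CPM) and CRABP2 (2.07 and 2.13 against 1.80 and 2.80 CPM) did not pass, with edgeR adjusted p = 0.193 and 0.669.

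Whether ATRA acted differently in the presence and absence of the KDM3B shRNA was asked in one model over all 8 libraries, as the ATRA effect in shKDM3B minus that in scramble. The difference was below 0 for all 8 tested members, compared with 52.4% of 13528 genes. By the thresholds of the study DHRS3, DHRS9 and CYP26A1 were called, all with a smaller ATRA effect in shKDM3B, so 3 of 8 members were called lower, whereas 3.99% of all genes were called and 2.72% were lower. CYP26A1 passed the filter on low counts through scramble+ATRA, where it is high, so its place in this count is a description. None passed an edgeR adjusted p under 0.05 in this fit, where 0 genes did. An unadjusted P under 0.05 was found for 607 genes (4.49%), near the share that this threshold gives when no gene differs. Without the filter on low counts DHRS3 and DHRS9 passed the adjusted threshold (edgeR adjusted p = 0.00657 and 0.0292) and CYP26A1 did not (0.086). The DHRS3 difference was -1.50 with and without the filter, so its lower adjusted p is no sign of a larger difference. With DESeq2, 1 member passed the adjusted threshold (DHRS3, adjusted p = 0.0221). The comparisons of ATRA in scramble, of ATRA in shKDM3B and of shKDM3B with scramble share these libraries.

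The DHRS3 difference was -1.50 ± 0.29 (log2, SE, unadjusted P = 0.00115, edgeR adjusted p = 0.965), which ranked 14th of 13528 genes by P. The untreated level was 1.73 times higher in shKDM3B on average, and the ATRA-treated level was 61.2% of that in scramble+ATRA. In CPM the mean rise was 150 in scramble and 89.4 in shKDM3B. Leaving out any 1 library gave between -1.75 and -1.26, with unadjusted P of at most 0.00758. Its edgeR adjusted p was 0.0408 without scramble+ATRA replicate 2, and among the settings that keep all libraries it ranged from 0.00657 without a filter on low counts to 0.997.

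The DHRS9 difference was -1.23 ± 0.32 (log2, SE, unadjusted P = 0.0059, edgeR adjusted p = 1.0). The ATRA-treated levels of the groups overlapped, at 197 and 276 CPM in scramble+ATRA and 215 and 227 CPM in shKDM3B+ATRA, whereas the untreated level was 2.19 times higher in shKDM3B on average. Leaving out any 1 library gave between -1.52 and -0.97, with unadjusted P of at most 0.0322. Its edgeR adjusted p ranged from 0.0292 without a filter on low counts to 1.0 among the settings that keep all libraries.

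The CYP26A1 difference was -3.35 ± 1.10 (log2, SE, unadjusted P = 0.0182, edgeR adjusted p = 1.0). The counting interval of the untreated ratio, 0.582 to 3.36 around 1.36, included 1, and the mean ATRA-treated level was 13.7% of that in scramble+ATRA. It was -2.59 and -4.93 without shKDM3B+ATRA replicates 1 and 2 and -4.45 without scramble replicate 2, and was no longer called without scramble replicate 1 (-2.78, unadjusted P = 0.0558) or shKDM3B replicate 1 (-3.16, unadjusted P = 0.0508).

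CYP26B1, the other hydroxylase, had a difference of -0.17 ± 1.34 (log2, SE, unadjusted P = 0.905). Its direction changed with the library left out, from -4.42 without scramble replicate 2 (called, unadjusted P = 0.0341) to 0.72 without scramble replicate 1. RETSAT, CRABP2, RDH11 and RDH10 had differences of -0.45, -0.34, -0.34 and -0.04, none of them called. RDH11 was called without scramble+ATRA replicate 1 (-0.65, unadjusted P = 0.0175). The direction of RDH10 turned to 0.04 with library size as the only scaling.

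**Figure D2:**
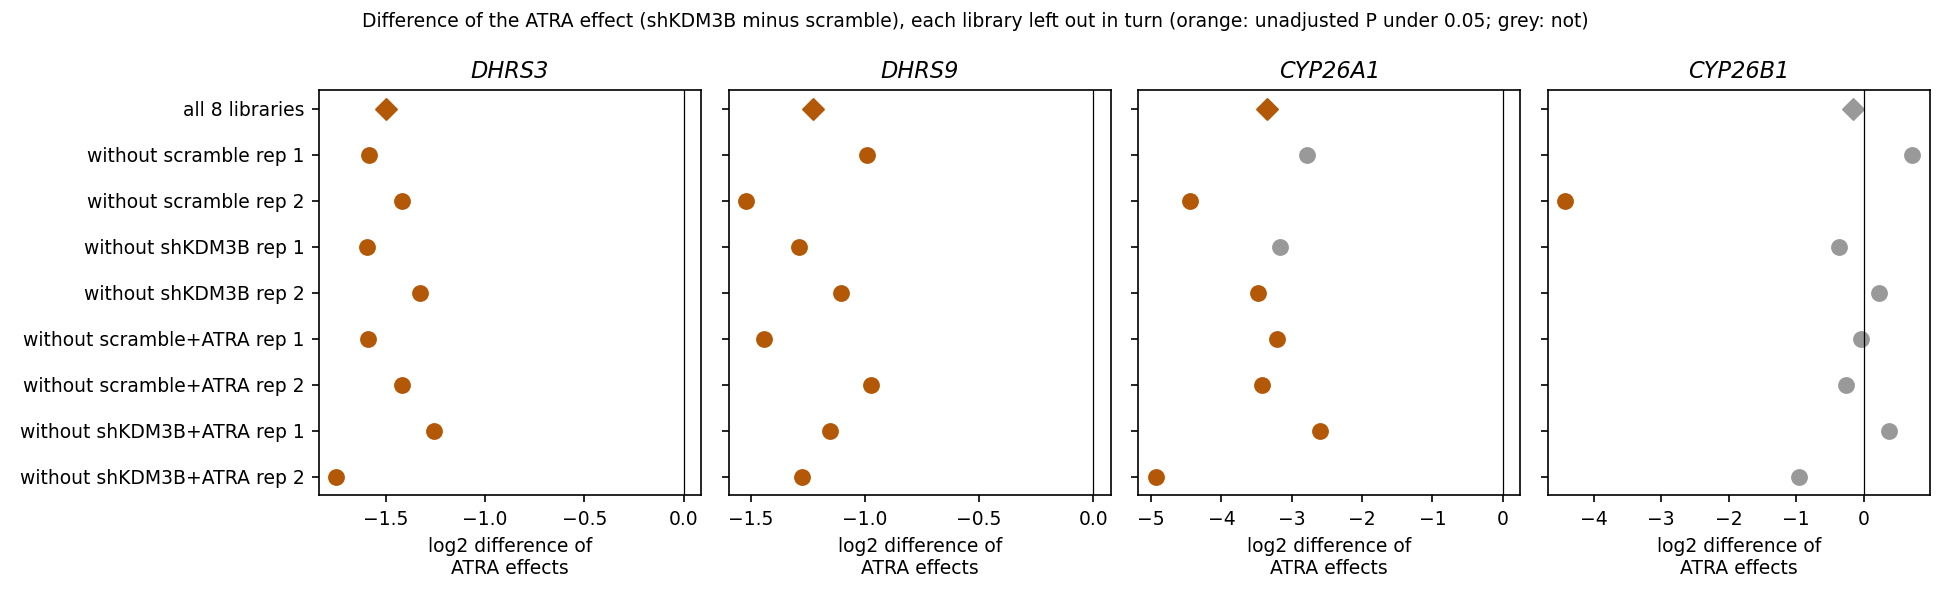
Difference of the ATRA effect (log2, shKDM3B minus scramble) for 4 members with all 8 libraries (diamond) and with each library left out (circles), orange where the unadjusted P is under 0.05. DHRS3 stays between -1.75 and -1.26 and DHRS9 between -1.52 and -0.97, whereas CYP26B1 runs from -4.42 to 0.72.

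Without ATRA, shKDM3B cells had higher levels of DHRS9 and DHRS3 than scramble cells by the thresholds of the study, but not by the adjusted p of the edgeR fit reported here. DHRS9 was at 23.3 and 34.1 CPM in scramble and 58.4 and 67.2 CPM in shKDM3B, with a log2 difference of 1.11 ± 0.21 (SE, unadjusted P = 5.9e-04, edgeR adjusted p = 0.122). The groups did not overlap, and DHRS9 was called whichever library was left out (log2 difference 0.88 to 1.41). DESeq2 gave it an adjusted p of 0.000377. Among the settings that keep all libraries its edgeR adjusted p ranged from 8.2e-06 without a filter on low counts to 0.307, and with 1 library left out from 2.97e-05 (without scramble replicate 2) to 0.0511 (without scramble replicate 1). Among the promyelocyte markers, MPO was at 4251 and 5380 CPM in scramble and 8202 and 9845 CPM in shKDM3B, and the other 6 summed to 217 and 267 CPM against 273 and 281 CPM. The maturation markers summed to 492 and 475 CPM in scramble against 341 and 374 CPM in shKDM3B. CD38, one of them, went the other way (115 and 108 CPM against 134 and 163 CPM). The part of all these markers in this difference was not tested. In all, 2 of 6 tested members were called, both higher, whereas 7.01% of 13855 genes were called and 3.48% were higher. At an edgeR adjusted p under 0.05, 0 members were called (3 had an unadjusted P under 0.05), with a background of 0.0217%, and with DESeq2 1 member, DHRS9. The median log2 difference was 0.39 over the members and 0.00 over all genes.

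DHRS3 was low in both groups, at 2.39 and 2.15 CPM in scramble and 3.54 and 4.32 CPM in shKDM3B, from 48 to 136 counts per library. The log2 difference was 0.78 ± 0.31 (SE, unadjusted P = 0.0352, edgeR adjusted p = 0.438). It was no longer called when any 1 of the 4 libraries was left out (0.86 and 0.70 without scramble replicates 1 and 2, 0.88 and 0.65 without shKDM3B replicates 1 and 2), nor with DESeq2 (unadjusted P = 0.0849).

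RETSAT was at 18.4 and 22.5 CPM in scramble and 30.3 and 26.6 CPM in shKDM3B (log2 difference 0.46 ± 0.20 SE, unadjusted P = 0.0475, edgeR adjusted p = 0.486), under the fold threshold, which it passed without scramble replicate 2 (0.61). RDH11 was at 32.5 and 38.9 against 43.1 and 46.4 CPM (log2 difference 0.31, edgeR adjusted p = 0.621). The groups did not overlap for any of the 6 tested members, RDH10 and CRABP2 included, so this sets none of them apart. RDH10 differed by -0.06 and CRABP2 by -0.49 on the log2 scale, with edgeR adjusted p = 0.957 and 0.725. CYP26A1 and CYP26B1 were below the count filter, and the pooled ratio of shKDM3B to scramble was 1.36 (counting interval 0.582 to 3.36) for CYP26A1 and 0.995 (0.286 to 3.58) for CYP26B1, so a difference of these sizes was not detectable at this depth.

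With ATRA, CYP26A1 and DHRS3 were lower in shKDM3B+ATRA than in scramble+ATRA by the thresholds of the study, but no member passed the adjusted p of the fit reported here. CYP26A1 was at 9.86 and 8.59 CPM in scramble+ATRA and 0.424 and 2.10 CPM in shKDM3B+ATRA. The groups were well apart although the shKDM3B+ATRA replicates differed from each other, with a log2 difference of -2.87 ± 0.87 (SE, unadjusted P = 0.0346, edgeR adjusted p = 0.502). From pooled counts its level was 7.27 times lower, with a counting interval of 4.82 to 11.5. The log2 difference was -2.13 without shKDM3B+ATRA replicate 1 and -4.43 without replicate 2. Without scramble+ATRA replicate 1 or 2 the edgeR adjusted p was 1.84e-09 and 3.82e-15 for CYP26A1 and 2.93e-08 and 5.68e-06 for DHRS3, in fits where 1 library stands alone in its group. Of 8 tested members 2 were called, both lower, whereas 6.79% of 14281 genes were called and 4.37% were lower. CYP26A1 passed the filter on low counts through scramble+ATRA and could then hardly be found higher in shKDM3B+ATRA, so this count is a description. At an adjusted p under 0.05, 0 members were called by edgeR, with a background of 0%, and 0 by DESeq2, and 2 had an unadjusted P under 0.05 by either. The median log2 difference was -0.14 over the members and 0.03 over all genes.

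DHRS3 was at 143 and 162 CPM in scramble+ATRA and 79.1 and 108 CPM in shKDM3B+ATRA, a log2 difference of -0.72 ± 0.21 (SE, unadjusted P = 0.0307, edgeR adjusted p = 0.502). Without shKDM3B+ATRA replicate 1, the lower of the treated knockdown libraries, it was -0.50 and not called (unadjusted P = 0.146). Among the 3 libraries with about 50% of reads outside genes, which leaves scramble+ATRA with 1 library, the log2 difference was -0.80 for DHRS3 and -2.74 for CYP26A1. The maturation marker sum was also lower in shKDM3B+ATRA (1800 and 2219 CPM against 3446 and 3668 CPM), although the groups overlapped for CD38 (437 and 546 CPM against 453 and 456 CPM). Among the promyelocyte markers, MPO was higher (3149 and 2208 CPM against 720 and 611 CPM) and the sum of the other 6 lower (357 and 386 CPM against 534 and 423 CPM). CEBPE, which rose with ATRA, made up most of that sum (261 and 284 CPM against 421 and 333 CPM). The part of these markers in the differences was not tested.

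CYP26B1 did not differ beyond its spread with ATRA, at 9.56 and 8.32 CPM in scramble+ATRA and 4.67 and 11.3 CPM in shKDM3B+ATRA (log2 difference -0.17 ± 0.53 SE, edgeR adjusted p = 0.926). CRABP2 was at 4.96 and 3.11 CPM against 1.80 and 2.80 CPM (log2 difference -0.82 ± 0.47 SE, edgeR adjusted p = 0.62), from 17 to 82 counts per library. Without scramble+ATRA replicate 2 CRABP2 was called (-1.12, unadjusted P = 0.00426, edgeR adjusted p = 0.0108). DHRS9, RDH10, RDH11 and RETSAT differed by -0.11, -0.09, -0.02 and 0.02 on the log2 scale. All 4 were close to the median of all genes, and the directions of DHRS9, RDH10, RDH11 and RETSAT turned when single libraries were left out.

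**Figure D3:**
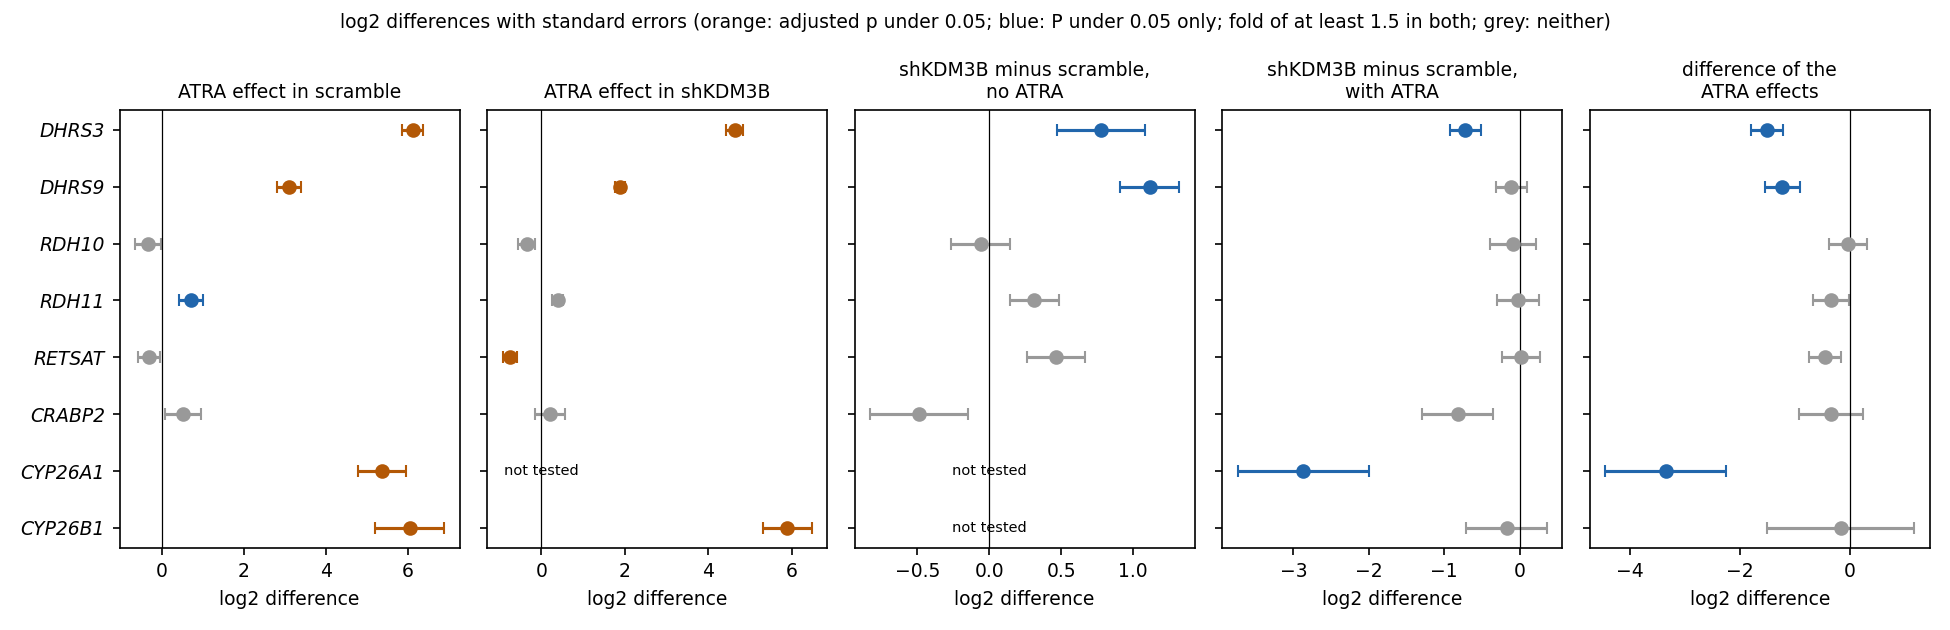
Log2 differences with standard errors for 8 members in the 5 comparisons, orange where the edgeR adjusted p is under 0.05, blue where only the unadjusted P is, both with a fold change of at least 1.5, and grey otherwise (x axes differ between panels). Adjusted calls appear for 4 members in each ATRA comparison and for 0 in the other panels.

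The rest of the retinoid pathway was taken as a list of 45 further genes of retinoid binding, storage, oxidation and reduction. Of these, 10 held 0 counts in every library, 18 held at most 3 counts in every library, and 16 held at least 10 counts in every library. With ATRA in scramble 4 of 19 tested genes were called, 2 higher and 2 lower, near the background of 25.9%, and 1 passed the adjusted threshold, against 12.9% of all genes. With ATRA in shKDM3B 9 of 20 were called, 5 higher and 4 lower, near the background of 42.2%, and 7 passed the adjusted threshold, against 40.2% of all genes. Between shKDM3B and scramble 3 of 20 were called without ATRA (background 7.01%) and 1 of 17 with ATRA (6.79%), and the ATRA effects differed for 1 of 22 (3.99%). The median log2 change of the list was 0.04 with ATRA in scramble and -0.34 with ATRA in shKDM3B, and the members' medians were 1.91 and 0.40.

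Among the enzymes that make retinoic acid from retinaldehyde, ALDH1A1, ALDH1A2 and ALDH1A3 were all near the limit of detection. ALDH1A3 held 0 counts in all 4 untreated libraries, 0 and 8 counts in scramble+ATRA and 25 and 12 counts in shKDM3B+ATRA. All its counts were thus in the 3 libraries with about 50% of reads outside genes, so it followed that split. It passed the count filter through the shKDM3B+ATRA libraries. ALDH1A2 held 9 and 9 counts in scramble, 10 and 8 in scramble+ATRA, 2 and 3 in shKDM3B and 15 and 7 in shKDM3B+ATRA. ALDH1A2 passed the filter in shKDM3B cells through its treated libraries. Its rise there was 11.6-fold by pooled counts (counting interval 4.29 to 39.3, edgeR adjusted p = 0.0021), and its ATRA effects differed by 2.78 on the log2 scale (unadjusted P = 0.0255, edgeR adjusted p = 1.0), opposite in sign to the members. That difference was no longer called without scramble replicate 1 (2.64), shKDM3B replicate 1 or 2 (2.85 and 2.74) or shKDM3B+ATRA replicate 1 (2.12), nor with DESeq2 (2.88, unadjusted P = 0.0785). ALDH1A1 held 17 counts or fewer in every library.

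AKR1C3, an aldo-keto reductase that also reduces retinaldehyde, was at 1.64 and 1.27 CPM in scramble, 5.02 and 7.04 CPM in scramble+ATRA, 0.556 and 0.889 CPM in shKDM3B and 1.17 and 1.90 CPM in shKDM3B+ATRA. It rose with ATRA in scramble by 2.09 ± 0.42 (log2, SE, edgeR adjusted p = 0.019). Without scramble replicates 1 and 2 the rise was 2.27 and 1.9, and it no longer passed the adjusted threshold. In shKDM3B cells its log2 change was 1.12 (edgeR adjusted p = 0.0655), and between shKDM3B+ATRA and scramble+ATRA it differed by -1.98 (unadjusted P = 0.0144, edgeR adjusted p = 0.502). Without shKDM3B+ATRA replicate 1 the latter was -1.66 and not called (unadjusted P = 0.091). The change in shKDM3B cells lost its call without shKDM3B replicate 1 (0.84) and without shKDM3B+ATRA replicate 1 or 2 (1.42 and 0.72), and with DESeq2 (1.13, unadjusted P = 0.191).

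BCO2, a carotenoid-cleaving oxygenase, was called by the thresholds of the study in both ATRA comparisons, with log2 changes of 1.06 in scramble and 0.72 in shKDM3B (edgeR adjusted p = 0.155 and 0.0534). BCO2 lost its call in scramble without scramble replicate 1 or 2 (1.52 and 0.69) or scramble+ATRA replicate 2 (0.87), and in shKDM3B without shKDM3B replicate 2 (0.56) or shKDM3B+ATRA replicate 1 or 2 (0.64 and 0.79). It also lost the call in scramble with library size alone, with upper-quartile scaling and without the low-count filter (0.97, 1.00 and 1.02), and in shKDM3B with DESeq2 (0.71) and in the fit of all 8 libraries (0.67). DHRS13, a short-chain dehydrogenase, was at 10.6 and 15.0 CPM in scramble and 5.14 and 6.77 CPM in scramble+ATRA (log2 change -1.06, edgeR adjusted p = 0.0986), and it fell by 1.16 on the log2 scale in shKDM3B (edgeR adjusted p = 0.0051). Without scramble replicate 1 or 2 the change in scramble was -1.30 and -0.81 and not called. CYP1B1, a cytochrome P450 that can oxidize retinol, was at 264 and 35.2 CPM in scramble and 16.9 and 19.3 CPM in scramble+ATRA (log2 change -3.01, edgeR adjusted p = 0.0552). The control replicates of CYP1B1 differed from each other by more than the second one differed from the treated libraries, and without scramble replicates 1 and 2 the log2 change was -0.93 and -3.84. In shKDM3B cells CYP1B1 fell by 1.65 on the log2 scale, from 63.7 and 49.2 CPM to 12.5 and 21.9 CPM (edgeR adjusted p = 6.6e-04), which was not called in the fit of all 8 libraries (-1.70, unadjusted P = 0.0722).

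In shKDM3B cells HSD17B6 rose with ATRA by 2.94 (log2, edgeR adjusted p = 2.0e-05), RBP4 fell by 1.61 (edgeR adjusted p = 0.0141) and DHRS11 fell by 2.14 (edgeR adjusted p = 0.0079). HSD17B6, an oxidoreductase of retinol and steroids, was at 10.6, 13.5 and 12.4 CPM in the 3 libraries with about 50% of reads outside genes and at 0.847 to 1.86 CPM in the other 5, so it followed that split. RBP4, the carrier of retinol in plasma, was at 4.24 and 7.55 CPM in shKDM3B and 1.06 and 2.60 CPM in shKDM3B+ATRA (log2 change -2.41 without shKDM3B+ATRA replicate 2). DHRS11, a short-chain dehydrogenase, held 25 and 65 counts in shKDM3B and 4 and 3 counts in shKDM3B+ATRA.

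Without ATRA, DHRS11 (15 and 5 counts in scramble) and DHRS2 (1 and 9 counts in scramble, 21 and 19 in shKDM3B) were called higher in shKDM3B by the thresholds of the study. The pooled ratio was 3.84 (counting interval 2.34 to 6.58) for DHRS11 and 3.41 (1.68 to 7.65) for DHRS2, with edgeR adjusted p = 0.329 and 0.47. Both rested on few reads. DHRS11 lost its call without scramble replicate 2 (log2 difference 1.14) or shKDM3B replicate 2 (1.43) and was at 2.96 without scramble replicate 1. DHRS2 lost its call without scramble replicate 1 (1.09) or shKDM3B replicate 1 (1.37) and was at 3.88 without scramble replicate 2, and it was not called with DESeq2 (unadjusted P = 0.0939) or in the fit of all 8 libraries (unadjusted P = 0.146).

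DHRS3 had the widest range of the members over the 8 libraries, 5.69 on the scale of log2(CPM + 1). CYP26B1 followed with 3.62, DHRS9 with 3.51 and CYP26A1 with 3.30, and the others had a range of at most 1.10. Among the genes whose pattern was most like that of DHRS3, by Pearson's r of log2(CPM + 1) over the 8 libraries and among 9789 genes, were SLC2A5 (r = 0.998), LRG1 (r = 0.998), GALM (r = 0.997) and BATF2 (r = 0.997). These values describe 8 libraries that fall into ATRA-treated and untreated ones, and a gene that responds to ATRA in this order will have a high r. SLC2A5, a fructose transporter, was at 60.9 to 62.7 CPM in scramble, 77.8 to 81.5 CPM in shKDM3B, 499 to 555 CPM in scramble+ATRA and 345 to 478 CPM in shKDM3B+ATRA. LRG1, a glycoprotein made by maturing neutrophils, was at 9.22 to 14.4 CPM without ATRA, at 318 and 426 CPM in scramble+ATRA and at 175 and 249 CPM in shKDM3B+ATRA.

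Per kilobase of exon, the order of the members in untreated scramble cells was DHRS9, RDH11 (6.49 ± 0.82 CPM), RETSAT (5.05 ± 0.71 CPM), CRABP2 (2.70 ± 0.61 CPM), RDH10 (2.43 ± 0.01 CPM), DHRS3, CYP26A1 (0.0738 ± 0.0569 CPM) and CYP26B1 (0.0262 ± 0.0370 CPM), all SD with n = 2. DHRS9 and RDH11, CRABP2 and RDH10, and CYP26A1 and CYP26B1 did not differ beyond their spread. With ATRA DHRS3 stood next to DHRS9 at the top of the order, and the hydroxylases came to 3.11 ± 0.30 CPM (CYP26A1) and 1.85 ± 0.18 CPM (CYP26B1) per kilobase in scramble+ATRA (SD, n = 2). In shKDM3B+ATRA the level per kilobase was 26.6 ± 5.7 CPM for DHRS3, 0.426 ± 0.399 CPM for CYP26A1 and 1.65 ± 0.97 CPM for CYP26B1 (SD, n = 2). CYP26A1 was above CYP26B1 in scramble+ATRA, whereas in shKDM3B+ATRA both CYP26B1 values (0.964 and 2.33 CPM) were above both CYP26A1 values (0.143 and 0.708 CPM).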

How the data were processed

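The deposited files hold whole-number counts of read pairs per gene, 1 file per library, without normalization. Per the methods, the authors used Trim Galore for trimming, HISAT2 for alignment to hg38, HTSeq for counting and DESeq2 for testing. Versions are not given in the sources used here. The strand setting of HTSeq is not given either, and reads on 2 overlapping genes were set apart as ambiguous (2.39 to 4.31% per library). The lines for reads outside genes stayed out of library sizes and tests.

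The members, the wider list, the tests and the naming rule were chosen with earlier results of these data known, so no count here is independent support. Of the wider list, genes were named where the unadjusted P was under 0.05, the fold change at least 1.5 and the groups did not overlap. The untreated files list 56470 names and the treated ones 56609, so the annotation may differ between them. ATRA comparisons and the interaction used the 37526 shared names, and the other comparisons used all names of their 4 files. Each pair of groups had its own fit with edgeR 4.0.16 (R 4.3.3): filterByExpr, TMM scaling and the quasi-likelihood test, with P-values adjusted by Benjamini-Hochberg across every gene fitted. The interaction used all 8 libraries. With 2 libraries against 2, an exact permutation test cannot go below a two-sided p of 0.333. The procedure was also run on simulated data, and no result given here rests on that run. DESeq2 1.42.0, other scalings and filters, a replicate block and each library left out were tried as alternatives. Positions and exon lengths came from GENCODE v44 and start sites from RefSeq (8 of 9 members matched). Python 3.11.15 handled the tables. The peak and chromatin experiments of the study were not analysed here. Some listed genes and a marker sum are not reported here.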

Additional observations from a re-analysis of the deposited data

Results flagged for a closer look

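By the interaction test the response to ATRA differed between shKDM3B and scramble cells for 3 of 8 members and 1 of 22 wider-list genes tested. The thresholds were an unadjusted P under 0.05 and a fold of at least 1.5. None passed an edgeR adjusted p under 0.05 in that fit. Without the filter on low counts DHRS3 and DHRS9 passed it (0.00657 and 0.0292). The DHRS3 difference was -1.50 there too, so its lower adjusted p is no sign of a larger difference. The log2 difference of the responses, shKDM3B minus scramble, was -1.50 for DHRS3 (unadjusted P = 0.00115), -1.23 for DHRS9 (unadjusted P = 0.0059), -3.35 for CYP26A1 (unadjusted P = 0.0182) and 2.78 for ALDH1A2 (unadjusted P = 0.0255). CYP26A1 was not called without scramble replicate 1 or shKDM3B replicate 1 (unadjusted P = 0.0558 and 0.0508), and ALDH1A2 was not called without scramble replicate 1, shKDM3B replicate 1 or 2 or shKDM3B+ATRA replicate 1 (unadjusted P up to 0.119) or with DESeq2 (0.0785). CYP26A1 passed the filter on low counts through scramble+ATRA, where it is high. Among all 13528 genes tested, 3.99% passed the same thresholds. Groups of 2 libraries are too small for a test of single outlying samples.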

How the results depend on the processing

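Each setting below changed 1 choice, except that the fit of all 8 libraries also limits the knockdown comparisons to the 37526 shared names and that DESeq2 brings its own scaling and filter. With adjusted in place of unadjusted P-values, 0 members were called by edgeR without ATRA, with ATRA and for the difference of the ATRA effects, while 4 were called in each ATRA comparison. DESeq2 called 1 member between shKDM3B and scramble without ATRA in place of 2. With 1 library left out, where the lone library of a group is assumed to vary like the others, 4 to 5 members were called for ATRA in scramble, 4 to 5 for ATRA in shKDM3B, 1 to 2 for the knockdown without ATRA, 1 to 3 with ATRA and 2 to 4 for the difference of the effects. The other scalings and filters and the fit of all 8 libraries kept these counts within 1.5 times.

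The replicate numbers do not establish pairs, since there are only 2 per group: the deviations of same-numbered libraries correlated by 0.448 between scramble and shKDM3B, 0.221 between shKDM3B and shKDM3B+ATRA, 0.042 between the ATRA groups and -0.109 between scramble and scramble+ATRA. With the replicate block 1 member (DHRS3) was called between the ATRA groups in place of 2 and CYP26A1 was not (-3.20, unadjusted P = 0.0526). The block left the counts of the other comparisons at 5, 4, 2 and 3, and without ATRA it gave DHRS9 an edgeR adjusted p of 8.9e-06 against 0.122. The crossed pairing of scramble and scramble+ATRA, chosen after seeing the data, called 5.

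Directions turned for results that were not called. With 1 library left out the ranges were -0.16 to 0.47 (CRABP2, ATRA in shKDM3B), -0.70 to 0.051 (CRABP2), -4.42 to 0.72 (CYP26B1), -0.27 to 0.24 (RDH10), -0.65 to 0.048 (RDH11) and -0.64 to 0.068 (KDM3B) for the difference of the effects, -0.59 to 0.073 for KDM3B with ATRA in scramble, and, for the knockdown with ATRA, -0.95 to 0.34 (CYP26B1), -0.33 to 0.15 (DHRS9), -0.33 to 0.19 (RDH10), -0.33 to 0.37 (RDH11) and -0.16 to 0.23 (RETSAT). Library size alone turned RDH10 to 0.038 (difference of the effects) and RDH11 to 0.010 (knockdown with ATRA), the replicate block turned RDH11 to 0.018, and upper-quartile scaling turned RETSAT to -0.0021. The cause was not tested. Depth limits CYP26A1, CYP26B1, ALDH1A2 and ALDH1A3, which hold few counts in the untreated libraries, and the ATRA libraries hold fewer counts on genes than the untreated ones.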
